A study of Mus musculus with 26 samples.

Results

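Nuclear genes of mitochondrial respiration were followed through 26 RNA-seq libraries of mouse liver. Members were the gene rows whose symbol fits a name pattern for nuclear-encoded subunits of the respiratory chain or of ATP synthase. Symbols marked as pseudogenes (-ps) and the Ndufaf assembly factors were left out. The pattern misses the subunits Cyc1, Cox4i1, Cox4i2 and Ndufab1, and takes in Cox7a2l and Atp5s, which were classed as factors and not as subunits. That rule took 86 of 47643 gene rows. Complex I (NADH dehydrogenase, the Nduf genes) had 38 members, complex II (succinate dehydrogenase, Sdha to Sdhd) had 4, complex III (cytochrome bc1, the Uqcr genes) had 8, complex IV (cytochrome c oxidase, the Cox genes with Ndufa4) had 19 and complex V (ATP synthase, the Atp5 genes) had 17. Of the 86 rows, 82 were annotated as protein-coding and 4 as processed pseudogenes (Ndufa11b, Ndufb4c, Ndufs6b and Cox6c2).

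The respiratory chain passes electrons from NADH and succinate to oxygen and pumps protons across the inner mitochondrial membrane, and ATP synthase uses the returning protons to make ATP. Most subunits are encoded in the nucleus, and a small core is encoded in mitochondrial DNA, so the complexes are built from the products of both genomes. Hepatocytes are rich in mitochondria and use them for fatty acid oxidation, gluconeogenesis and urea synthesis. The coactivator PGC-1alpha (Ppargc1a), the factors NRF1, GABP and YY1 and the estrogen-related receptors (Esrra, Esrrg) are known regulators of these genes.

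The libraries formed 10 groups and 5 experiments, each with its own control. Wild-type C57BL/6J mice of 8 weeks, fed ad libitum, received corn oil (n = 2) or TCPOBOP, an agonist of the mouse receptor CAR (n = 2); the titles give 36 h after injection and the source field gives 6 h. C57BL/6J mice of 12 weeks, fed ad libitum, were wild type (n = 3) or lacked the bile acid receptor Fxr and the repressor Shp in every cell (Fxr-/- Shp-/-, n = 3). C3H/HeN mice of 8 to 10 weeks, fed ad libitum, were taken at 0 h of a sham operation (n = 3) or at 48 h after partial hepatectomy (n = 3), so operation and time cannot be told apart. Hepatocytes came from wild-type C57BL/6J mice of 16 weeks on chow (n = 2) or on a 60% fat diet (n = 2) after a 10 h fast. C57BL/6J mice of 10 to 12 weeks with floxed Fxr and Shp alleles (fl/fl Fxr fl/fl Shp), in the chow and the treated group alike, were fed chow (n = 3) or a diet with cholic acid, a primary bile acid (n = 3), and fasted for 8 to 10 h; no Cre is named in the labels. All other groups were whole liver. Nothing says how the libraries of a group relate to single animals, so p-values measure the spread between these libraries.

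Gene counts per library ran from 13949059 to 70367874, and the members took 0.879% to 1.52% of them. Levels are given as CPM, depth-normalised counts after TMM scaling within each experiment; those of the 3 label checks that follow, and of Cox6a2, were divided by the total gene count alone (unscaled CPM). Nr0b2, the gene of Shp, was at 12.3 to 26.8 unscaled CPM in wild-type libraries and at 0.650 to 1.73 in knockout libraries; Nr1h4, the gene of Fxr, was at 106 to 153 and at 60.0 to 71.1, so the loss of Shp shows in the gene counts, while that of Fxr shows only as a lower count. The library labelled corn oil 1 went against its label: Cyp2b10, the classical CAR target, stood at 3953 unscaled CPM there, against 10.5 in corn oil 2 and 3301 and 3026 in the TCPOBOP libraries. The 6 libraries of the knockout experiment stood apart as well. Annotated pseudogenes took 1.05% to 1.13% of their gene counts, against 0.0909% to 0.247% in the other 20 libraries. In the same 6 libraries, 5 members (Ndufs5, Cox7c, Atp5g1, Atp5g2 and Atp5l) had a mean more than 4-fold below that of the rest. The 2 pseudogene members Ndufs6b and Cox6c2 had a mean more than 4-fold above it. Cox7c was at 2.47 to 5.42 CPM against 86.3 to 219.5 CPM, and Atp5g2 at 0.242 to 0.759 against 47.2 to 77.7 CPM. Atp5l was at 0.732 to 1.39 against 44.3 to 113.6 CPM, and Cox6c2 at 33.5 to 44.2 against 0.0276 to 0.736 CPM. Ndufs5 passed this cut mainly through its knockout libraries. Smaller shifts, as for Ndufa12, are outside the cut. Members with close copies (the Atp5g genes, Atp5l, Cox6c and Cox7c) are therefore uncertain as single genes, and treated groups were compared with controls only within an experiment. Levels set across experiments, here, in the levels per kilobase and for Ndufs5 and Ndufa12, are descriptions with no test, since TMM scaling was done in each experiment separately. The share of multiply aligned reads did not overlap between the arms of 4 experiments. It was 43.2% to 44.1% in wild type and 25.5% to 26.9% in the knockout, 16.6% to 17.6% with cholic acid against 23.8% to 25.1% in its chow group, 23.8% to 24.6% in chow hepatocytes and 19.0% to 19.3% on high fat, and 20.1% to 20.7% in sham and 18.9% to 20.05% after hepatectomy.

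Expressed per kilobase of transcript, which allows genes to be compared, the catalytic beta subunit of ATP synthase (Atp5b) led with a mean over the 26 libraries of 650 CPM per kb. Ndufa4, a subunit of complex IV despite its name, followed with 600 and Uqcrq, a small subunit of complex III, with 556 CPM per kb. Ndufb9, an accessory subunit, had the highest mean of complex I, at 235 CPM per kb, although Ndufa6 was above it in the knockout group (192 and 188 CPM per kb). In complex II the mean was highest for Sdhd, a membrane anchor, at 174 CPM per kb, but the order changed with the group. Sdha led in the corn oil, TCPOBOP and both hepatocyte groups (180 and 138 CPM per kb for Sdha and Sdhd on high fat), and Sdhb led on chow in the floxed mice (231 and 205 CPM per kb for Sdhb and Sdhd). The range of Atp5b over libraries (532 to 945 CPM per kb) overlapped those of Ndufa4 (450 to 1172) and Uqcrq (403 to 923), so these 3 are not ordered beyond their spread. The median protein-coding member was lowest in complex I, at 76.4 CPM per kb, and highest in complex III, at 195 CPM per kb. Median transcript length was 680 nt over members and 1116 nt over all gene rows, which include rows never tested. Tested genes were longer. Of 12785 genes tested for TCPOBOP, 5078 were 2000 to 4000 nt and 3509 over 4000 nt, against 5 and 0 of 77 members. Cox7b2 and Cox8c, isoforms of other tissues, had 0 counts in every library, and 5 members passed the low-count filter in no comparison.

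Partial hepatectomy, the removal of liver lobes that sets off regeneration, was followed by lower levels through all 5 complexes. The call rule was an edgeR quasi-likelihood p below 0.05 once adjusted (Benjamini-Hochberg) over all genes tested. Of 78 members tested, 33 fell and 1 rose, where 30.7% of all genes were called (14.3% lowered and 16.4% raised). Among the tested members 73 had a negative log2 fold change, and for 60 every hepatectomy library lay below every sham library, against 22.6% of all genes. The median log2 fold change was -0.24 over members and 0.01 over all genes. The count of lowered members was 16 of 35 in complex I, 3 of 4 in complex II, 4 of 8 in complex III, 5 of 14 in complex IV and 5 of 17 in complex V.

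Both catalytic subunits of complex II fell. Sdhb, the iron-sulfur subunit, was at 204, 209 and 225 CPM in sham livers and at 134, 144 and 140 CPM after hepatectomy. The groups did not overlap, and the log2 fold change was -0.61 ± 0.08 (SE; edgeR adjusted p = 0.000914). Sdha, the flavoprotein, was at 538, 539 and 509 CPM in sham and 385, 370 and 383 CPM after hepatectomy, a log2 fold change of -0.48 ± 0.07 (adjusted p = 0.00223). In complex I, Ndufs7, a core subunit that carries an iron-sulfur cluster, was at 51.1, 58.8 and 67.0 CPM in sham and 35.0, 39.0 and 42.9 CPM after hepatectomy (log2 fold change -0.60 ± 0.12). The accessory subunit Ndufa6 was at 86.0, 80.8 and 94.9 CPM and at 55.5, 55.9 and 61.2 CPM (log2 fold change -0.60 ± 0.09). All the sham values of these 2 genes lay above the hepatectomy values. Uqcrc1, a core protein of complex III, fell from 276 ± 18.4 CPM to 197 ± 5.44 CPM (SD, n = 3 each), and its partner Uqcrc2 had a log2 fold change of -0.45. The accessory subunit Ndufb8 fell by 0.48, Ndufb9 by 0.42, Atp5b by 0.28 and, in complex IV, the ubiquitous isoforms Cox6a1 by 0.34 and Cox8a by 0.27 on the log2 scale. Among the other abundant members, Sdhd (-0.18 ± 0.08), Uqcrq (-0.25 ± 0.09) and Ndufa4 (-0.20 ± 0.08) did not pass. Cox6b2, a testis isoform of complex IV, was the member that rose, from 5, 7 and 9 counts in sham to 52, 40 and 49 counts (log2 fold change 2.56 ± 0.32), at levels of no more than 1.52 CPM.

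**Figure D1:**
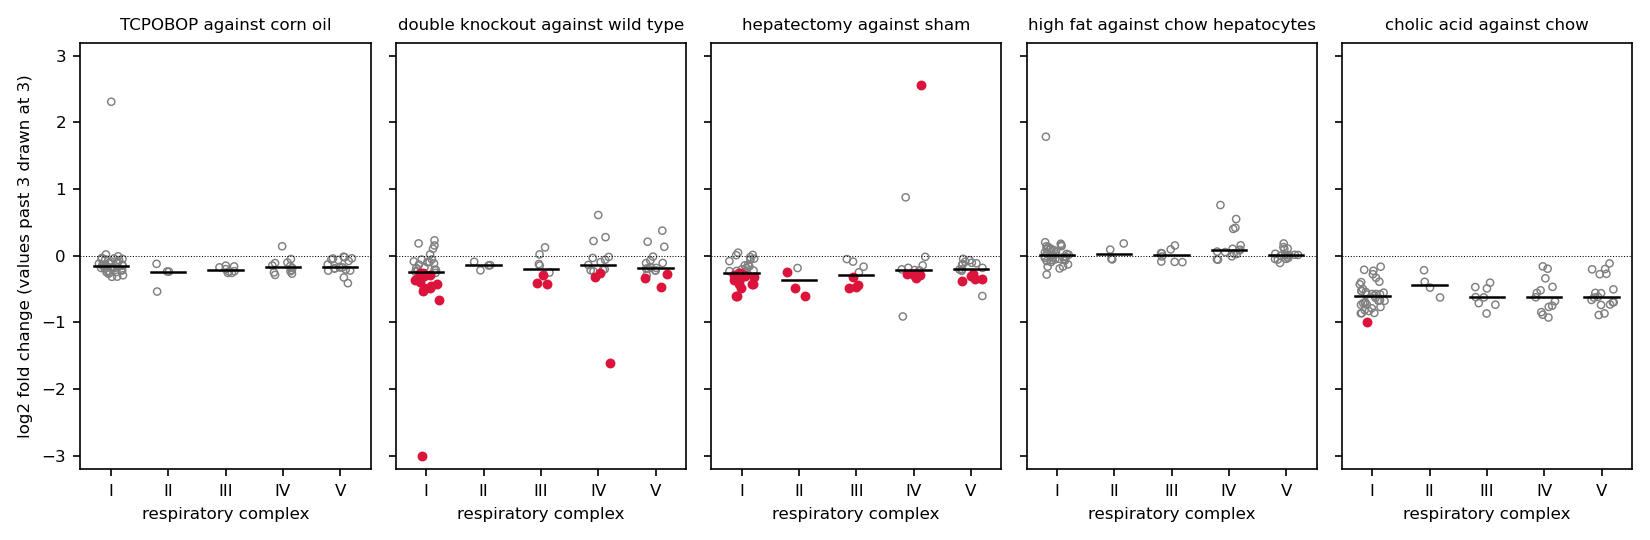
Log2 fold change of each tested member (points) by respiratory complex in the 5 comparisons; filled red points are called at adjusted p under 0.05, open points are not, black lines are medians, and values past 3 are drawn at 3. After hepatectomy 33 members were called lower and in the double knockout 25, while with cholic acid all 77 tested members lay below 0 with 1 called.

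Promoters of 68 of the 82 protein-coding members were found by symbol in the RefSeq table (GRCm38.p6, 250 bases before to 50 after the gene start). Those of 4 members that fell after hepatectomy are printed here as examples of windows that hold a match, and were chosen after the matches were seen. Sdha, which fell as well, had no match in its window, and none of the 4 windows holds an ERR match. Capitals mark matches, on either strand, to the NRF1 core GCATGCG, the ETS motif CCGGAAG that GABP binds, the ERR motif AAGGTCA or the YY1 motif AAGATGG; NRF1 matches on both strands can overlap each other. The windows are chr4:140961021-140961320 on the plus strand for Sdhb, chr9:108936398-108936697 on the plus strand for Uqcrc1, chr10:80249199-80249498 on the plus strand for Ndufs7 and chr15:82354242-82354541 on the minus strand for Ndufa6.
Sdhb: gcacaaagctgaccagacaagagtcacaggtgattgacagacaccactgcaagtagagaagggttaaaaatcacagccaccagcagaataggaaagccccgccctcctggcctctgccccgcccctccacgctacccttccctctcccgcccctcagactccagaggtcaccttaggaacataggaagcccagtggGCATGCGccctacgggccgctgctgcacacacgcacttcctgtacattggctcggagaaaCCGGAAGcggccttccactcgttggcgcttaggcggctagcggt
Uqcrc1: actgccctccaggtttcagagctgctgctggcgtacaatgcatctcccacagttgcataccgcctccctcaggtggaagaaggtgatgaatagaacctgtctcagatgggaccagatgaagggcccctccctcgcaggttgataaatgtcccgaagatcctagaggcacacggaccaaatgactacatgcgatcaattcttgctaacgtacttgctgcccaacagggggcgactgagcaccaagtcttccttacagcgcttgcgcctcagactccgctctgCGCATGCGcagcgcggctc
Ndufs7: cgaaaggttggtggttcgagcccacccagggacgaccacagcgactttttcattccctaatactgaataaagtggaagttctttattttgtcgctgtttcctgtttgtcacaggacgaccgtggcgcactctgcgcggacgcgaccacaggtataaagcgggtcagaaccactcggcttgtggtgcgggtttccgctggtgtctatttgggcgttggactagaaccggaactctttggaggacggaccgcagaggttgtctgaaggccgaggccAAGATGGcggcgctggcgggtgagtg
Ndufa6: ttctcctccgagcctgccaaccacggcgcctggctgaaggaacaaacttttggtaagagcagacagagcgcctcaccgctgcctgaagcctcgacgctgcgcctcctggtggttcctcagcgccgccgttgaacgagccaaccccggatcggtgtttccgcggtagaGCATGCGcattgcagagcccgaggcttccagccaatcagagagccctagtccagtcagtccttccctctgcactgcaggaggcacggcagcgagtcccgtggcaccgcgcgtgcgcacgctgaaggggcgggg

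Sdhb held an NRF1 match 54 bases before its start and an ETS match 6 bases after it, and Ndufa6 held an NRF1 match 83 bases before its start. Uqcrc1 held overlapping NRF1 matches on both strands from 31 bases after the start, and Ndufs7 held a YY1 match 24 bases after it. Among the 68 member genes, 11 had an NRF1 match (16.2%), 16 an ETS match (23.5%), 8 an ERR match (11.8%) and 11 a YY1 match (16.2%). Counted per promoter, as some genes have several, the shares were 15.1%, 21.9%, 10.96% and 15.1% of 73 member promoters, and 3.58%, 8.86%, 4.72% and 6.34% of all 32851 promoters in the table. Among members lowered after hepatectomy 5 of 26 had an NRF1 match, and among members tested but not called 6 of 39 did. The counts were 5 of 26 and 11 of 39 for the ETS motif, 0 of 26 and 8 of 39 for the ERR motif, and 5 of 26 and 6 of 39 for the YY1 motif. These are letter matches in a fixed window, not shown binding sites.

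Among the other genes of the pathway, Cyc1 and Cox4i1, further subunits of complexes III and IV, fell by 0.38 and 0.35 after hepatectomy, which is 2 of 4 tested. Of 8 mitochondrially encoded subunits tested, 3 fell: mt-Cytb by 0.46, mt-Co1 by 0.45 and mt-Nd4 by 0.39. Assembly factors fell in 6 of 46 cases and rose in none, with Fmc1, which helps assemble ATP synthase, at -0.60 and Ecsit, a complex I factor, at -0.52. Of 23 genes listed as biogenesis regulators, with the uncoupling protein Ucp2 among them, 6 fell and 1 rose. Ppargc1a went from 56.5, 70.4 and 64.9 CPM in sham to 32.8, 14.8 and 9.84 CPM, a log2 fold change of -1.74 ± 0.38 (edgeR adjusted p = 0.0108). Citric acid cycle genes fell in 6 of 13 cases, mitochondrial ribosomal proteins fell in 10 and rose in 3 of 76, and cytosolic ribosomal proteins fell in 4 and rose in 3 of 75. Members over 1000 nt had lower medians than short ones (-0.30 at 1000 to 2000 nt, -0.12 under 500 nt), whereas the medians of all genes in those ranges were -0.01 and -0.05. Hepatocyte markers fell in 3 of 6 cases, with a summed level of 127802 to 130400 CPM in sham and 94429 to 106963 CPM after hepatectomy; their part in the result was not tested. In whole liver, fewer hepatocytes and less RNA of these genes per cell cannot be told apart. The 33 lowered members became 15 without sham replicate 2 or sham replicate 3, where 18.2% and 18.3% of all genes were called. They became 21 without hepatectomy replicate 1 (27.6% of all genes) and 17 in a fit over all 26 libraries (22.7%).

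In the livers labelled Fxr-/- Shp-/-, 25 of 80 tested members were lower and 0 higher, in an experiment where 40.4% of all genes were called (19.4% lowered and 21% raised). Leaving out the pseudogene Cox6c2, 24 were lower. The count at an unadjusted p under 0.05 was 33 members (41.2%), against 49.7% of all genes. DESeq2 called 2 members raised and 19 lowered, and 38.3% of all genes. Among the tested members 67 were negative, with a median log2 fold change of -0.20 against -0.01 over all genes, and for 35 every knockout library lay below every wild-type library (26.9% of all genes). Complex I held 16 of the lowered members among 36 tested, complexes III, IV and V held 3 each among 8, 15 and 17, and complex II held 0 of 4, with log2 fold changes of -0.22 to -0.09 there.

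Ndufs7 was at 85.3, 70.9 and 94.4 CPM in wild type and at 46.8, 53.6 and 58.5 CPM in the knockout (log2 fold change -0.66 ± 0.13, edgeR adjusted p = 0.00388). The groups did not overlap. Ndufb9 went from 191 ± 15.4 to 132 ± 3.83 CPM, Ndufa12 from 21.8 ± 0.523 to 15.6 ± 0.704 CPM and Ndufb3 from 48.6 ± 4.38 to 34.9 ± 1.67 CPM (SD, n = 3 each); all 3 are accessory subunits of complex I. Outside complex I, Atp5o, a peripheral stalk subunit of ATP synthase, had a log2 fold change of -0.47, and Uqcrfs1, the Rieske iron-sulfur protein of complex III, one of -0.43. Of the most abundant members, Atp5b (-0.22 ± 0.11), Ndufa4 (-0.21 ± 0.11), Sdhd (-0.22 ± 0.11) and Uqcrq (0.02 ± 0.11) did not pass, nor did Cox6a1 (-0.22 ± 0.09) and Cox8a (-0.02 ± 0.10). Cox7a1, the heart and muscle isoform of complex IV, fell by 1.61, with wild-type libraries holding 11, 9 and 18 reads and knockout libraries 4, 8 and 4.

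Ndufs5 had the lowest value, a log2 fold change of -5.66 ± 0.34. It stood at 262, 173 and 281 counts in wild-type libraries and 8, 2 and 8 counts in knockout libraries, which is 10.9 to 17.0 CPM against 0.0929 to 0.366 CPM. In the other 20 libraries it was at 28.2 to 52.8 CPM, so its wild-type values were lower as well, across separately scaled experiments and with no test. The shares of multiply aligned reads given above moved with the same 2 groups, and their part in the result was not tested.

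Of the other pathway lists in the knockout, Cyc1 and Ndufab1 fell by 0.47 and 0.36 (2 of 4 tested). Mitochondrially encoded subunits fell in 4 of 7 cases, led by mt-Cytb at -0.98 and mt-Nd5 at -0.88. Assembly factors fell in 17 and rose in 3 of 46, with Sco2, a copper chaperone of complex IV, at -0.74 and Cox17, another copper chaperone, at 0.94. In the list of 23 regulators 8 fell and 1 rose, with Esrra at -0.65, Ppara at -0.98 and Gabpa, a subunit of GABP, at -0.40. The gene that rose, Ucp2 at 1.07, encodes an uncoupling protein that was placed in this list, not a regulator of these genes. Ppargc1a was at -0.43 ± 0.28 and did not pass. The citric acid cycle was split, with 3 of 13 genes raised (among them Cs, citrate synthase, at 0.64) and 3 lowered. Mitochondrial ribosomal proteins fell in 21 and rose in 2 of 75, and cytosolic ones fell in 6 and rose in 1 of 73. Hepatocyte markers fell in 4 of 6 cases (92823 to 116686 CPM in sum in wild type, 65805 to 86237 in the knockout), cholangiocyte markers rose in 4 of 5 (27.3 to 38.0 CPM and 57.4 to 135 CPM in sum) and stellate cell markers rose in 4 of 6; the part of cell makeup was not tested. The 25 lowered members became 8 without knockout replicate 1 (30.4% of all genes called) and 9 without wild-type replicate 3 (31.9%). They became 10 without wild-type replicate 1 (28.8%) and 14 without knockout replicate 2 (32.1%). Of the lowered members, 12 were also among those lowered after hepatectomy, which is 48% of the knockout list and 36.4% of the hepatectomy list; of all tested members, 42.3% were lowered after hepatectomy. They were Ndufa1, Ndufa6, Ndufa9, Ndufb5, Ndufb8, Ndufb9, Ndufs7, Ndufv1, Ndufv3, Uqcrc1, Uqcrfs1 and Atp5a1.

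**Figure D2:**
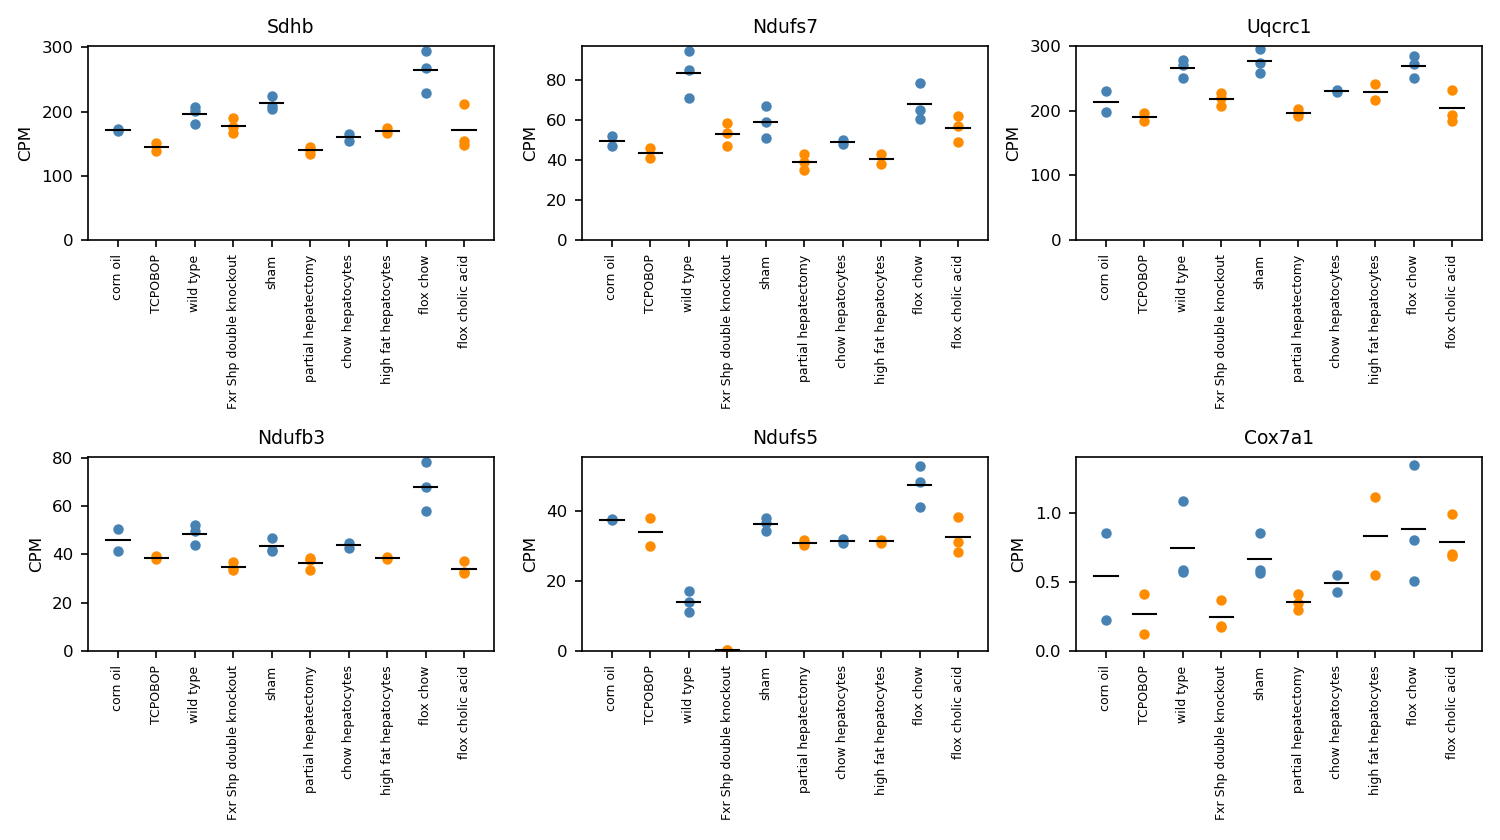
CPM (TMM scaled within each experiment) of 6 members in each library (points; blue controls, orange treated) with group means (lines). Sdhb and Uqcrc1 were lower in every hepatectomy library than in every sham library, and Ndufs5 fell to 0.366 CPM or less in the 3 knockout libraries from a wild-type level already below that of the other experiments.

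On the cholic acid diet every one of the 77 tested members had a negative log2 fold change, against 6173 of 12577 genes in all. One passed the threshold, with 0 raised and 1 lowered where 4.77% of all genes were called (2.27% raised and 2.5% lowered); 54 members (70.1%) had an unadjusted p under 0.05, against 23.1% of all genes. Ndufb3 was the member called, at 57.8, 67.8 and 78.2 CPM on chow and 32.7, 37.2 and 32.1 CPM on cholic acid (log2 fold change -0.998 ± 0.17, edgeR adjusted p = 0.0155). Ndufs8, a core iron-sulfur subunit, had a log2 fold change of -0.79 with an adjusted p of 0.0503, and Ndufb10 one of -0.86 with an adjusted p of 0.0515 in the same test. Of the most abundant members, Ndufb9 had -0.67 ± 0.23, Uqcrq -0.62 ± 0.21, Ndufa4 -0.52 ± 0.25, Sdhd -0.39 ± 0.27 and Atp5b -0.20 ± 0.24, and none of these passed. The median was -0.62 over members and 0.01 over all genes, and complex medians ran from -0.43 in complex II to -0.62 in complexes III, IV and V, with -0.60 in complex I. For 43 members every cholic acid library lay below every chow library (15.7% of all genes). These counts leave out members below the low-count filter. Among those, Cox6b2 had 2, 3 and 9 counts on chow and 32, 26 and 8 counts on cholic acid. With no filter, 2 of 83 members had a positive log2 fold change.

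Short transcripts in general were lower on cholic acid. The median of all genes was -0.52 under 500 nt, -0.36 at 500 to 1000 nt, -0.17 at 1000 to 2000 nt, 0.03 at 2000 to 4000 nt and 0.22 over 4000 nt. Members of the same lengths had medians of -0.63, -0.68, -0.50 and -0.28, with no member over 4000 nt, so each of these medians lay below that of all genes of the same length. With a length trend removed from each library, 73 of 77 members were negative and the median was -0.27. In that fit 30 members had an unadjusted p under 0.05 and 1 was called, where 4.33% of all genes were called. Libraries of a group also differed: the summed level of all members was 11928, 13494 and 17252 CPM on chow and 9487, 11673 and 8929 CPM on cholic acid. Chow replicate 3 was the highest of the 6 libraries for 69 of 77 members. Without it the median was -0.42, 72 of 78 members were negative and 6 were called lower, and 0 were called without chow replicate 2 or without any 1 of the cholic acid libraries. The share of all genes called was 10.4% without chow replicate 3 and 1.5% without chow replicate 2. It was 1.48% to 2.13% without a cholic acid library. DESeq2's Wald test called 28 members lower and 11.5% of all genes, and a fit over all 26 libraries called 63 members lower and 1 raised and 21% of all genes. The shares of multiply aligned reads given above moved with the same groups, and their part in the result was not tested.

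**Figure D3:**
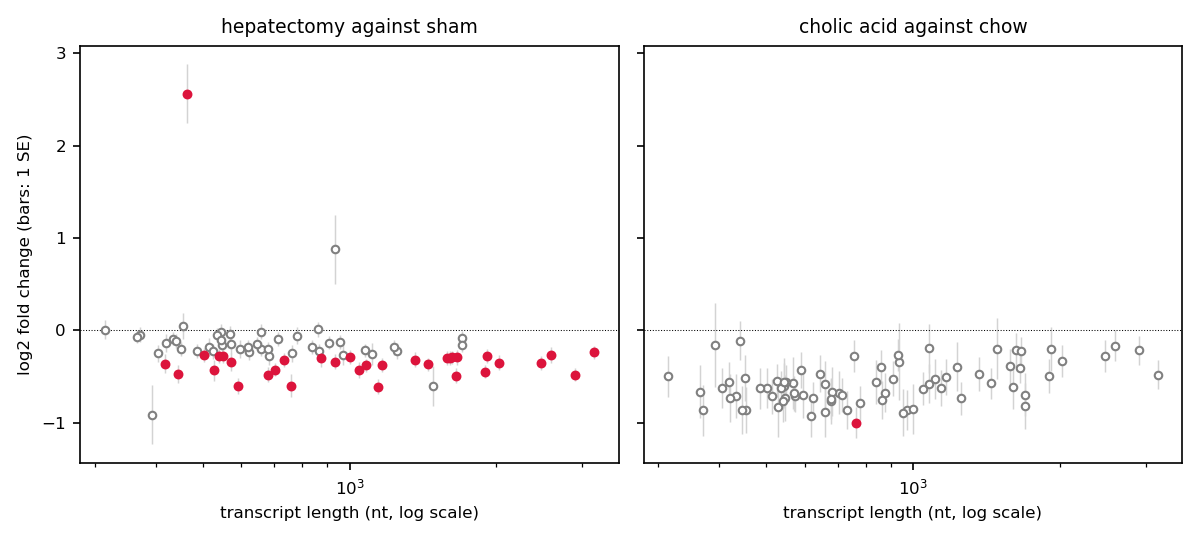
Log2 fold change (points, with bars of 1 SE) of tested members against transcript length on a log axis after hepatectomy and on cholic acid; red points are called. After hepatectomy the median was -0.12 under 500 nt and -0.30 at 1000 to 2000 nt, and on cholic acid it was -0.63 and -0.50.

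Other lists on cholic acid gave 0 of 4 further subunits and 0 of 10 mitochondrially encoded subunits called, 2 of 46 assembly factors lowered (Fmc1 at -0.90 and Sdhaf2, a complex II factor, at -0.76) and 1 of 23 regulators raised. That regulator was Ppargc1a, at 7.33, 9.90 and 10.3 CPM on chow and 19.6, 20.01 and 18.6 CPM on cholic acid (log2 fold change 1.08 ± 0.18, edgeR adjusted p = 0.0164). The groups did not overlap. In the citric acid cycle 1 of 13 genes fell; of the ribosomal proteins 0 of 76 mitochondrial and 0 of 75 cytosolic ones were called, with medians of -0.43 and -0.10. Hepatocyte markers fell in 2 of 6 cases (98913 to 116198 CPM in sum on chow, 92462 to 117834 on cholic acid) and macrophage markers rose in 1 of 6 (80.2 to 230 CPM in sum on chow, 194 to 322 on cholic acid); the part of these was not tested.

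In hepatocytes from mice on the high fat diet, 0 of 80 tested members were called, while 24% of all genes were. The count at an unadjusted p under 0.05 was 3 members, against 40.0% of all genes, and DESeq2 called 0 members and 24.8% of all genes. The median was 0.01 over members and 0.01 over all genes, with 48 members positive and 32 negative. Summed over members the level was 10064 and 9678 CPM on chow and 10034 and 9837 CPM on the high fat diet, which overlap. The smallest p among protein-coding members belonged to Ndufs7, at 50.1 and 48.1 CPM on chow and 43.0 and 37.8 CPM on high fat (log2 fold change -0.28 ± 0.09, edgeR adjusted p = 0.0741), and the smallest of all to the pseudogene Ndufs6b (1.79 ± 0.53), with Ndufb3 (-0.19 ± 0.08) next to these. Around the members, 4 of 46 assembly factors rose (Coa6, a complex IV factor, at 0.55), mt-Nd6 rose by 0.46, Ucp2 rose by 1.00 and Ppargc1b, the relative of Ppargc1a, had a log2 fold change of -1.30. Cytosolic ribosomal proteins, a set of other short mRNAs, fell in 56 of 75 cases. Markers of endothelium rose in 5 of 5 cases and of macrophages in 5 of 6 (34.6 to 36.7 CPM and 85.3 to 87.7 CPM in sum for endothelium), and 4 of 6 hepatocyte markers fell.

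After TCPOBOP, 0 of 77 tested members were called where 0% of all genes were. The count at an unadjusted p under 0.05 was 2 members, against 5.87% of all genes. DESeq2's Wald test called 0 members and 0.853% of all genes. Of the 77 tested members 74 were negative, with a median of -0.17 against -0.02 over all genes. Summed levels were 10074 and 11081 CPM with corn oil and 9708 and 8941 CPM with TCPOBOP, so the labelled groups did not overlap. For 43 members every TCPOBOP library lay below every corn oil library, against 18.7% of all genes. The corn oil group holds the library with high Cyp2b10, so this is a separation by label only. Sdhd had the smallest p of the protein-coding members, at 170 and 222 CPM with corn oil and 139 and 131 CPM with TCPOBOP (log2 fold change -0.54 ± 0.18, edgeR adjusted p = 0.835). Without the library labelled corn oil 1, whose Cyp2b10 was high, 2 of 78 members were lowered, where 480 of 13190 genes were lowered and 9.35% were called in either direction, and the median was -0.22; the lone control is then assumed to vary like the TCPOBOP libraries. The pseudogene Ndufs6b (2.31) and Atp5g3, a c-ring subunit of ATP synthase (-0.41), were the others among the 3 smallest p. No list of other pathway genes had a called gene, since no gene of any kind was called. The 10 mitochondrially encoded subunits tested were all positive, with a median of 0.18, and the 4 further subunits tested were all negative. Hepatocyte markers summed to 46820 and 100062 CPM in corn oil 1 and 2, and to 55961 and 52874 CPM with TCPOBOP. Their part in the result was not tested.

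**Figure D4:**
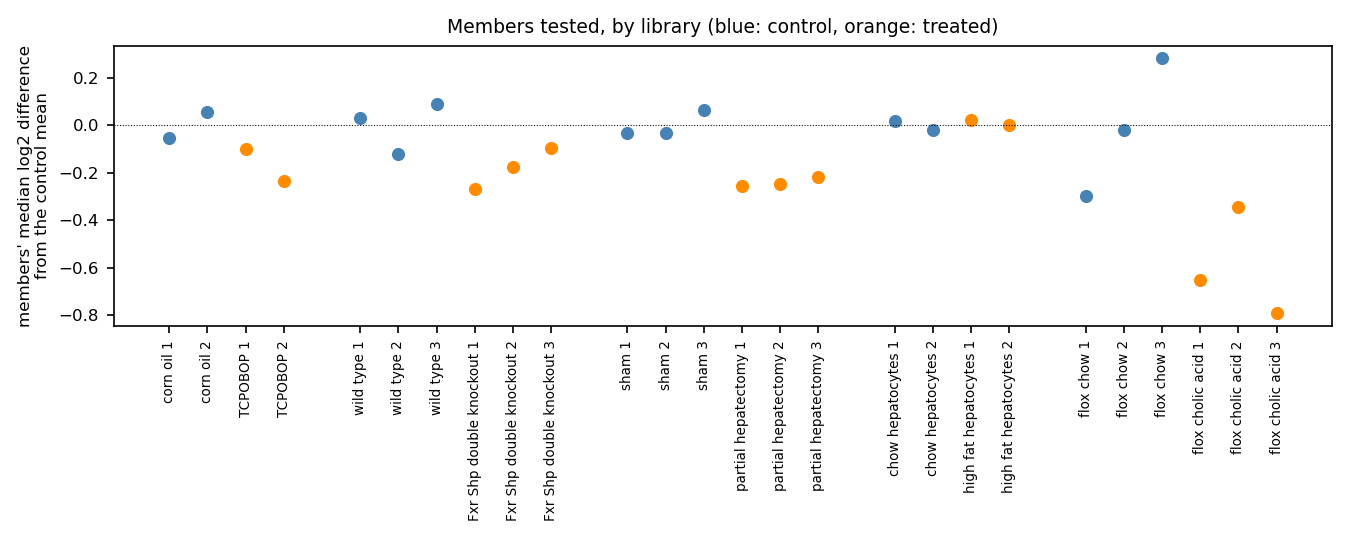
Median over tested members of the log2 difference of a library from the mean of its control group (blue controls, orange treated). The 3 hepatectomy libraries sit between -0.26 and -0.22, the 3 cholic acid libraries between -0.79 and -0.35 around chow libraries that spread from -0.30 to 0.28, and the high fat libraries at 0.02 and 0.00.

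Differences between effects were tested directly for 3 pairs of comparisons that share no library. The knockout effect minus the cholic acid effect passed in 5 members where 13.9% of all genes passed (7.18% higher and 6.74% lower): Uqcr11, a small subunit of complex III, was higher by 1.00 ± 0.30 (edgeR adjusted p = 0.0459), as were Cox6b1 of complex IV by 0.90 and Ndufa2 and Ndufb10 of complex I by 0.82 and 0.81, and Ndufs5 was lower. Uqcr11 was at 75.0, 72.8 and 89.9 CPM in wild type, 79.7, 91.2 and 88.5 in the knockout, 98.9, 134 and 187 on chow and 76.8, 92.5 and 61.2 CPM on cholic acid. With the length trend removed or with the replicate number as a block, 0 of these differences in the upward direction passed. In those 2 fits 13.7% and 11% of all genes passed. The hepatectomy effect minus the cholic acid effect passed in 3 members where 13% of all genes passed (8.01% higher and 5.01% lower). They were Ndufb2 at 0.91, Ndufb3 at 0.75 and Ndufs8 at 0.73. Of these the blocked fit kept a count of 1, where 10.7% of all genes passed. Ppargc1a differed in the same test by -2.81 ± 0.47. The knockout effect minus the high fat effect passed in 5 members, all lower, where 16.1% of all genes passed (7.98% higher and 8.11% lower): Ndufs5, Cox7a1 at -2.37, the pseudogene Ndufs6b at -1.58, Uqcrfs1 at -0.52 and Ndufb9 at -0.49.

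Isoforms typical of other tissues were low in every library. Cox6a2, the heart and muscle partner of Cox6a1, was at 20 to 60 counts (0.301 to 0.853 unscaled CPM) in the 4 hepatocyte libraries, while Cox6a1 was at 146 to 305 CPM over all 26. Cox8b, the partner of Cox8a, reached at most 0.215 CPM against 131 to 265 CPM for Cox8a. Ndufa4l2, a hypoxia-responsive relative of Ndufa4, was at 0.229 to 1.54 CPM and was called in none of the 5 comparisons. Cox7a2, the ubiquitous partner of Cox7a1, did not pass in any of the 5, with a log2 fold change of -0.06 ± 0.12 in the knockout and -0.88 ± 0.27 on cholic acid (edgeR adjusted p = 0.725 and 0.0984).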

How the data were processed

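Read counts per gene were deposited by the authors as whole numbers in 1 table for 26 libraries, with 5 summary lines that were left out. Per the labels' protocols, RNA came from flash-frozen liver or hepatocytes and libraries from a stranded mRNA kit. The submitters' processing notes name bcl2fastq 2.17.1.14, Trimmomatic, STAR 2.4.2a, Picard 1.119, HTSeq and the build GRCm38 (mm10); the annotation release and the use of strand in counting are not given in the sources used here, so genes that overlap on opposite strands are uncertain. Symbols were matched for 47224 of 47643 identifiers. Transcript lengths came from GENCODE M21. Each treated group was tested against its own control with edgeR 4.0.16 (R 4.3.3): filterByExpr (minimum count 10, minimum total 15), TMM, quasi-likelihood F test, Benjamini-Hochberg over all genes tested. SE was obtained from the F statistic, as log2 fold change over its root. Differences between 2 effects used the same test.

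Alternatives were DESeq2 1.42.0 (size factors, Wald test), no filter, a mean count of 10, all 26 libraries, a length offset, the replicate number as a block and leaving out each library; a length offset without chow replicate 3 was added after seeing the data. The members, lists and tests were chosen with earlier results of these data known. Named are up to 6 called members in each direction with the largest change (3 in an effect difference), the 3 smallest p where fewer than 3 were called, the most abundant member of each complex per length, and the tissue isoforms with their partners; other members named were chosen after their values were seen. The procedure was run on simulated counts with seeded changes larger than most member effects. Their spread was below that of the TCPOBOP and cholic acid experiments. The simulation therefore does not show how often effects of the size reported here are found. Gene counts of 13949059 to 70367874 per library limit precision for members at a few counts. Same-numbered libraries of the cholic acid experiment had correlated deviations of 0.133, 0.155 and 0.103, and the numbers come from the titles. Those of the TCPOBOP and high fat experiments had 0.104 and 0.094. These values cannot show a pairing, since libraries with different numbers were not compared.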

Additional observations from a re-analysis of the deposited data

Results flagged for a closer look

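Effects of 2 treatments that differed by a direct test are listed here. Between the knockout and cholic acid experiments the log2 effects differed for Uqcr11 by 1.00, for Cox6b1 by 0.90, for Ndufa2 by 0.82, for Ndufb10 by 0.81 and for Ndufs5 by -5.11. Between the hepatectomy and cholic acid experiments they differed for Ndufb2 by 0.91, for Ndufb3 by 0.75 and for Ndufs8 by 0.73. Between the knockout and high fat experiments they differed for Ndufs5 by -5.66, for Cox7a1 by -2.37, for Ndufs6b by -1.58, for Uqcrfs1 by -0.52 and for Ndufb9 by -0.49. Ndufs5 and Ndufs6b had unusual levels in all 6 libraries of the knockout experiment.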

How the results depend on the processing

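Counts are of members called, with the share of all genes called in either direction in brackets. Medians are those of members minus those of all genes. In the knockout, 2 members were raised with DESeq2's size factors (40.3%), its Wald test (38.3%) or the length offset (42.4%). With the replicate block 15 were lowered (35.4%). After hepatectomy 17 were lowered with all 26 libraries (22.7%). On high fat the median of 0.0056 turned to -0.035 with no filter, and 1 member was lowered with the length offset (24%). On cholic acid 28 were lowered by DESeq2's Wald test (11.5%) and 7 with no filter (4.54%). With all 26 libraries 63 were lowered and 1 was raised (21%). The length offset gave a median of -0.27. Together with leaving out chow replicate 3 it gave 6 lowered (10.7%) and a median of -0.24. For the knockout minus cholic acid difference, all 26 libraries gave 18 raised (20%) and the block 0 raised (11%). The length offset gave 0 raised and 3 lowered (13.7%) and a median of 0.051. For hepatectomy minus cholic acid, 7 were raised by DESeq2 (18.4%), 1 with no filter (7.7%), 13 with all 26 libraries (18.4%) and 1 with the block (10.7%). There the length offset gave a median of 0.037. For knockout minus high fat, 9 were lowered by DESeq2 (19.5%) and 2 with all 26 libraries (8.59%). The length offset lowered 18 (18.2%) and the block 1 (13%). The cause of these shifts was not tested.

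Each library was left out in turn. Calls are given where the library came from an arm of 3, with the share of all genes called in brackets. Members lowered were 8 to 31 in the knockout (28.8% to 43.9%), 15 to 35 after hepatectomy (18.2% to 30.2%) and 0 to 6 on cholic acid (1.48% to 10.4%). They were 1 to 1 for knockout minus cholic acid (9.31% to 16.5%) and 0 to 0 for hepatectomy minus cholic acid (7.89% to 17%). For knockout minus high fat they were 1 to 10 (11.2% to 19.7%). Members raised in the same fits were 0 to 1 in the knockout and 1 to 1 after hepatectomy. They were 0 to 18 for knockout minus cholic acid and 0 to 13 for hepatectomy minus cholic acid. Medians ran from -0.26 to -0.15 in the knockout, -0.28 to -0.22 after hepatectomy, -0.78 to -0.43 on cholic acid, -0.23 to -0.066 with TCPOBOP, -0.031 (without chow hepatocytes replicate 2) to 0.016 on high fat, 0.24 to 0.56, 0.17 to 0.49 and -0.26 to -0.13 for the 3 differences in the same order. With 2 libraries in an arm, the one left is assumed to vary like the other group. Same-numbered libraries of the knockout experiment had correlated deviations of -0.176, -0.038 and -0.019. These values can neither show nor exclude a pairing, since libraries with different numbers were not compared. Beyond the counts already listed for it, the block changed no count of members called by over 1.5 times. Members at a few counts (Cox7a1, Cox6b2, Ndufs6b) are limited by depth.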
